A study of Mus musculus with 14 samples.

Results

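The genes described here carry out DNA replication and chromosome segregation. They are 45 listed genes, 22 that act in S phase and 23 that act in mitosis, chosen by name and found by Entrez identifier among the 14792 genes present in both of the authors' deposited tables. All 45 were present on both days, so no member was lost to a filter on low values. RNA had been sequenced from 14 cultures of differentiating mouse embryonic stem cells, all of the cell line GLI1-FTA in the strain A2Lox.cre, a background made for doxycycline-driven expression of an inserted gene. At D5, the neural progenitor stage, there were 4 cultures given doxycycline at 500 ng/ml for 48 h, from day 3 to day 5, to express GLI1, and 4 untreated controls. At D10, the immature neuron stage, there were 3 cultures that had received the same pulse and were harvested 5 days after it ended, and 3 untreated controls. GLI1 is the transcriptional activator at the end of the Hedgehog pathway. The controls had no doxycycline, so an effect of the drug and an effect of GLI1 cannot be told apart, and every culture came from a single engineered line.

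Before a cell copies its genome, Cdc6 and Cdt1 load the MCM helicase onto replication origins, and Cdc45 and the GINS complex then switch it on. Polymerases, the sliding clamp Pcna and a supply of nucleotides complete the copying. In mitosis, cyclin-dependent kinase 1 with cyclins A and B, the Aurora and Polo kinases, and the spindle and kinetochore proteins divide the copies, and the anaphase-promoting complex ends the process. Transcription of the first group is driven by E2F factors, and that of the second by the MuvB complex with B-Myb and FoxM1, which binds a promoter element called the cell cycle genes homology region (CHR), often beside CCAAT boxes bound by NF-Y. Neural progenitors divide and neurons do not, and Hedgehog signalling is known as a mitogen for several kinds of neural progenitor.

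The promoters show how the groups differ in the DNA ahead of their genes. Stretches of 200 bases just before the RefSeq start (GRCm38.p6) are printed 5′ to 3′ for 3 S phase genes that hold an E2F site there and 3 mitosis genes that hold a CHR. They were chosen after their sequences were seen. Capitals mark every match, on either strand, to an E2F site (TTTCGCGC, TTTGGCGC, TTTCCCGC or TTTGCCGC), a CHR (TTTGAA or TTCGAA) or a CCAAT box (CCAAT). Overlapping matches run together. The stretches lie at chr8:75109309-75109508 on the plus strand for Mcm5, chr1:128359706-128359905 on the minus strand for Mcm6, chrX:93632156-93632355 on the minus strand for Pola1, chr10:69352913-69353112 on the minus strand for Cdk1, chr11:99024190-99024389 on the minus strand for Top2a and chr2:164769729-164769928 on the plus strand for Ube2c.
Mcm5: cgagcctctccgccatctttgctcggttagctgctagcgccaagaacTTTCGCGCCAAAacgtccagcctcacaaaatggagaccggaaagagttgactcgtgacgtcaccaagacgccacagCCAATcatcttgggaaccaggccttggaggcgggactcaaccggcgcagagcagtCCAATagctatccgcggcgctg
Mcm6: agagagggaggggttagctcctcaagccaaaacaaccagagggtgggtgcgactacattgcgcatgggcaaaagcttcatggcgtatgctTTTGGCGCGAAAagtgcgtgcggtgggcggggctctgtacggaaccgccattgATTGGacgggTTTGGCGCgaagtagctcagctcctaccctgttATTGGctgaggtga
Pola1: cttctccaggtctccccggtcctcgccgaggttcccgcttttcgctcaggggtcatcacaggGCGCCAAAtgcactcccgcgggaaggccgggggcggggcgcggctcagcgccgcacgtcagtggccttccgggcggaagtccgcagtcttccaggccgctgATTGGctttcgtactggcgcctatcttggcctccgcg
Cdk1: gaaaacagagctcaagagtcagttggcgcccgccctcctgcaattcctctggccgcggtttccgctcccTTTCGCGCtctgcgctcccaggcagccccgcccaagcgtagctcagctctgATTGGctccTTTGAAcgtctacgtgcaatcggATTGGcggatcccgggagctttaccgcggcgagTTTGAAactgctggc
Top2a: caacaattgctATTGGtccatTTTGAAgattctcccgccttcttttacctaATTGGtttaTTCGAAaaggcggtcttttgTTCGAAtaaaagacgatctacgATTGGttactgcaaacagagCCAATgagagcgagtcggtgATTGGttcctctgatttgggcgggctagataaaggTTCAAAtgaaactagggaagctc
Ube2c: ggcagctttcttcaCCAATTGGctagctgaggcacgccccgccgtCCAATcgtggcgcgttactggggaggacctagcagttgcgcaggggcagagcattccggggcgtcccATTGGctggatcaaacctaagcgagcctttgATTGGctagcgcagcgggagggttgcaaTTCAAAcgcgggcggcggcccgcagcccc

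In these stretches, Mcm5 and Mcm6 each carry 2 CCAAT boxes and E2F matches that overlap on both strands, with no CHR. Top2a carries 4 CHR matches among 5 CCAAT boxes and no E2F match, and Cdk1 carries 2 CHR matches, 2 CCAAT boxes and 1 E2F match. RefSeq promoter windows, from 250 bases before the start to 50 after, were at hand for 40 of the 45 genes, 20 of each group. A CHR lay in the windows of 16 of the 20 mitosis genes (80%) and 3 of the 20 S phase genes (15%), against 21.7% of the 27025 genes with a window. An E2F site lay in 1 mitosis gene (5%), which is Cdk1, and in 8 S phase genes (40%), against 2.61% of all genes. These 8 were Mcm3, Mcm5, Mcm6, Mcm7, Cdc6, Cdt1, Pola1 and Uhrf1. CCAAT boxes were in 15 S phase genes (75%) and 17 mitosis genes (85%), against 41.1% of all genes. In lists of 39 other replication genes and 64 other mitosis genes with a window, the shares were 46.2% and 70.3%. The high CCAAT share in S phase members was thus not seen in the other replication genes. A CHR lay in 23.1% of those other replication genes and 67.2% of the other mitosis genes, and an E2F site in 33.3% and 14.1%. The low E2F share of the mitosis members was thus not seen in the other mitosis genes. Both a CHR and a CCAAT box lay in 15 mitosis genes (75%) and 3 S phase genes (15%), against 8.61%. A match is a run of letters and not a measured binding site, and 2 of the 40 genes have 2 windows, either of which could hold the match.

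**Figure D1:**
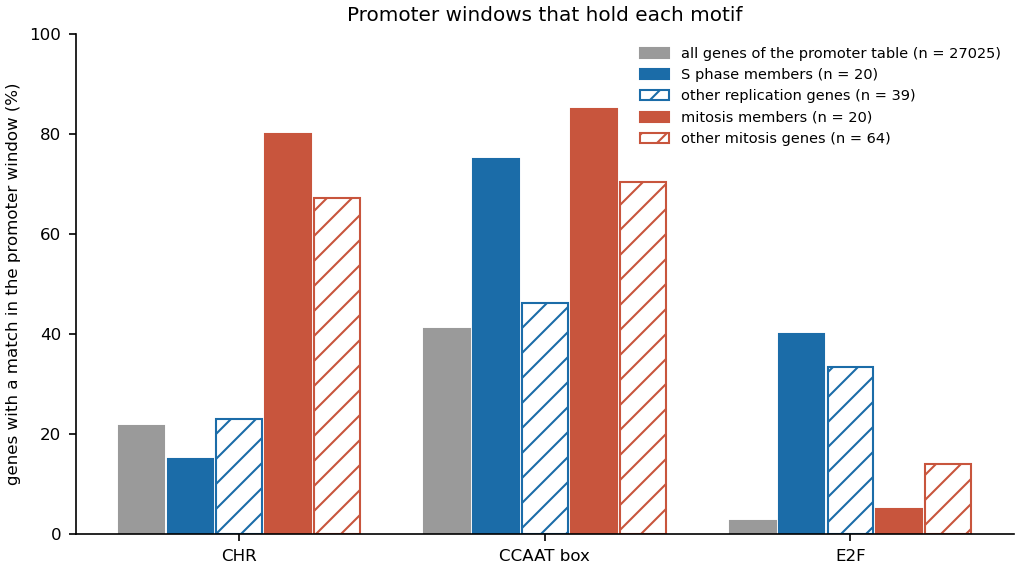
Share of genes (%) whose RefSeq promoter window holds at least 1 match to the CHR, the CCAAT box or an E2F site, for the 20 S phase and 20 mitosis genes with a window, 39 other replication genes, 64 other mitosis genes and all 27025 genes of the promoter table. The CHR bar is at 80% for mitosis genes and 15% for S phase genes, and the E2F bar is at 5% and 40%.

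The first comparison sets the level of each gene at D5 beside its level at D10. The authors' deposited tables give 1 average log2 CPM (reads of a gene relative to all reads of the library) per gene and day, over control and induced cultures together, with no value per culture. The tables were normalized separately and hold no spread for these averages, so a difference between days has no test and no error, and is a description. Across all shared genes the median difference, D10 minus D5, was 0.0053 on the log2 scale, and 49.6% of genes were below 0. Among the 6212 genes whose level reached log2 CPM 5 at D5, as all members did, 61.6% were below 0. Of the 45 members, 44 were lower at D10, with a median difference of -0.81. At least a 2-fold lower level was seen in 15 members, against 5.69% of all shared genes and 5.78% of those 6212, and in none a 2-fold higher level, against 12.2% and 3.07%. Fewer dividing cells and less of each RNA per dividing cell cannot be told apart in bulk RNA.

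S phase genes stood further down than mitosis genes. The 22 S phase genes had a median difference of -1.14, with all 22 lower and 14 at least 2-fold lower, and a range from -1.70 to -0.70. The 23 mitosis genes had a median of -0.65, with 22 lower and 1 at least 2-fold lower, and a range from -1.32 to 0.05. All 22 S phase genes lay below the mitosis median, and only 1 mitosis gene, Mki67, lay below the S phase median. Counted as a sum, the S phase genes took 3440.5 CPM at D5 and 1505 at D10 (43.7% of the D5 sum), and the mitosis genes 4170.3 and 2579 (61.8%). A change of scale between the tables would move both groups by the same amount.

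**Figure D2:**
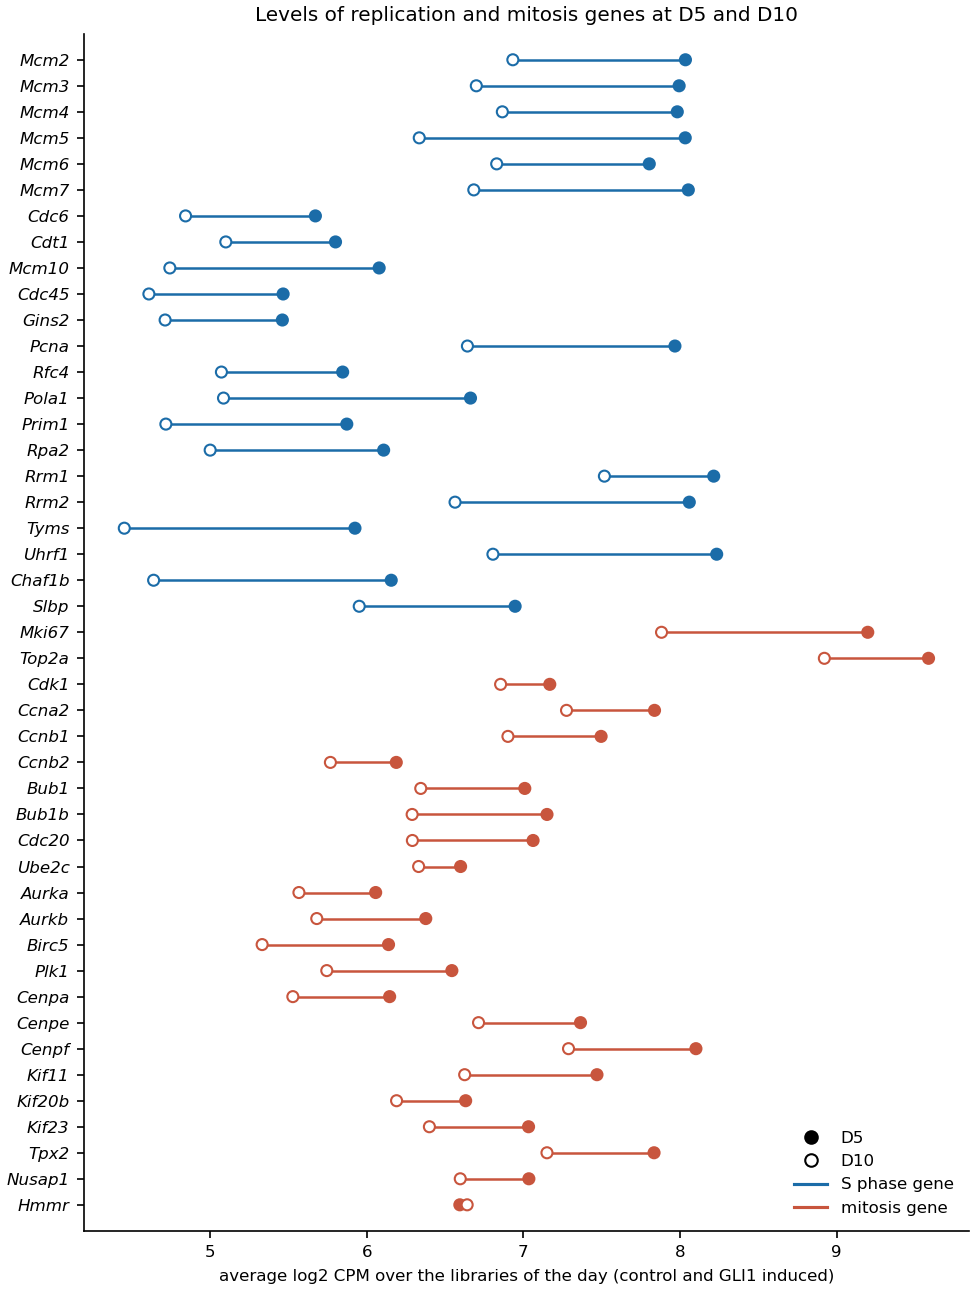
Average log2 CPM of each of the 45 genes at D5 (filled) and D10 (open), as the authors' deposited tables give them over all cultures of a day, with S phase genes in blue and mitosis genes in red. The open circle is to the left of the filled one for 44 genes, by a median of 1.14 for S phase genes and 0.65 for mitosis genes, and Hmmr is the exception.

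All 6 MCM helicase subunits were lower at D10. Mcm5 had the largest difference of any member, with an average log2 CPM of 8.03 at D5 and 6.34 at D10 in the authors' deposited tables, or 30.8% of its D5 CPM. Mcm6 had the smallest of the 6 subunits, 7.80 and 6.83 in the authors' deposited tables (50.9%). The other subunits lay between, Mcm7 at -1.37, Mcm3 at -1.29, Mcm4 at -1.12 and Mcm2 at -1.10. These proteins form a ring with 1 copy of each subunit. Per kilobase of the longest GENCODE protein-coding transcript, the subunits spanned 51.3 to 89.6 CPM at D5 and 23.9 to 36.2 CPM at D10, so their ranges on the days do not overlap.

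Genes that load and start the helicase had smaller differences, with a median of -0.83. The loader Cdc6 stood at 5.67 at D5 and 4.84 at D10 in the authors' deposited tables, and its partner Cdt1 at 5.80 and 5.10. Cdc45 and Gins2, both parts of the active helicase, differed by -0.86 and -0.75. Mcm10, which helps to activate the helicase, was the lowest of this set at -1.34, or 39.6% of its D5 level. It was the only one of these 5 genes past 2-fold.

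Among the copying enzymes, Pola1, the catalytic subunit of DNA polymerase alpha, was at 33.5% of its D5 level, with 6.66 and 5.09 in the authors' deposited tables. The clamp Pcna followed at -1.32, with 7.97 and 6.64 in the authors' deposited tables. Prim1, the primase that makes the starting RNA, differed by -1.15, and Rpa2, which coats single-stranded DNA, by -1.11. Rfc4, a subunit of the clamp loader, stood at -0.77. Its exons overlap those of the coding gene Eif4a2 on the opposite strand, and the sources used here do not say whether reads were counted by strand.

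The nucleotide enzymes split. Ribonucleotide reductase makes deoxyribonucleotides with a large subunit, Rrm1, and a small subunit, Rrm2. Rrm2 was at 35.5% of its D5 level, with 8.06 and 6.56 in the authors' deposited tables, and Rrm1 at 61.7%, with 8.21 and 7.52. Rrm1 had the smallest difference among the 22 S phase genes. Tyms, which makes thymidylate, resembled Rrm2, with a difference of -1.47.

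Genes that rebuild chromatin on new DNA had a median of -1.43. Chaf1b, a subunit of the histone chaperone CAF-1, was at 35.0% of its D5 level. Uhrf1, which guides maintenance of DNA methylation, stood at 8.23 and 6.81 in the authors' deposited tables (37.2%). Slbp, which binds the stem-loop of histone messages, was at 50.2%, just short of 2-fold.

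Among mitosis genes, the proliferation antigen Mki67 stood apart. Its average log2 CPM was 9.20 at D5 and 7.88 at D10 in the authors' deposited tables, or 40.2% of the D5 level, and it was the only mitosis gene past 2-fold. The next lowest mitosis gene was the checkpoint kinase gene Bub1b at -0.86, and 16 of the 22 S phase genes lay below that value. Top2a, the topoisomerase that untangles chromosomes, had the highest average log2 CPM of the members on both days, 9.59 and 8.92 in the authors' deposited tables (63.1%).

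Cdk1 and its cyclins had the smallest median difference of the roles, -0.49. Cdk1 was at 80.4% of its D5 level, with 7.17 and 6.85 in the authors' deposited tables. Ccnb2 differed by -0.42, Ccna2 by -0.56 and Ccnb1 by -0.59. These drive entry into mitosis. Ube2c, the ubiquitin-conjugating enzyme of the anaphase-promoting complex, was closer still, with 6.60 and 6.33 in the authors' deposited tables (83.1%). The complex's activator Cdc20 was lower by more, at -0.77, and the checkpoint kinase Bub1 stood at -0.66.

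The mitotic kinases and the centromere proteins held an intermediate place. Plk1, the Polo kinase, differed by -0.80 and Birc5 (survivin), a partner of Aurora B, by -0.81. Aurkb stood at -0.70 and Aurka at -0.49. At the centromere, the histone variant gene Cenpa differed by -0.62, the motor gene Cenpe by -0.65 and Cenpf by -0.81.

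Spindle genes included the single member that was not lower. Hmmr, a microtubule-binding spindle protein that is also a receptor for hyaluronan, stood at 6.59 at D5 and 6.64 at D10 in the authors' deposited tables, a difference of 0.05. Nusap1, which bundles microtubules, and the motor gene Kif20b both stood at -0.44. Kif23, a motor of the central spindle, stood at -0.63, Tpx2, which activates Aurora A on the spindle, at -0.68, and Kif11, the motor that pushes spindle poles apart, at -0.84.

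Other genes of the same processes were taken from lists of 52 further replication genes and 74 further mitosis genes, all present on both days. The replication list had a median difference of -1.06, with 50 of 52 lower and 29 at least 2-fold lower. The mitosis list had a median of -0.63, with 71 of 74 lower and 6 at least 2-fold lower. The gap between replication and mitosis lists was -0.48 for the members and -0.43 for the further genes. At the low end of the replication list were the nuclease gene Dna2 at -1.84, the polymerase epsilon gene Pole at -1.80 and the checkpoint mediator Clspn at -1.79. Its high end held the origin recognition subunits Orc4 at 0.04 and Orc3 at 0.0014, and the single-strand binding subunit Rpa3 at -0.24. In the mitosis list, Cenph at -1.25, Kif15 at -1.20 and Cenpm at -1.19 were lowest. The securin gene Pttg1 at 0.44, the phosphatase gene Cdc25b at 0.28 and the midbody gene Cep55 at 0.11 were the 3 above 0.

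**Figure D3:**
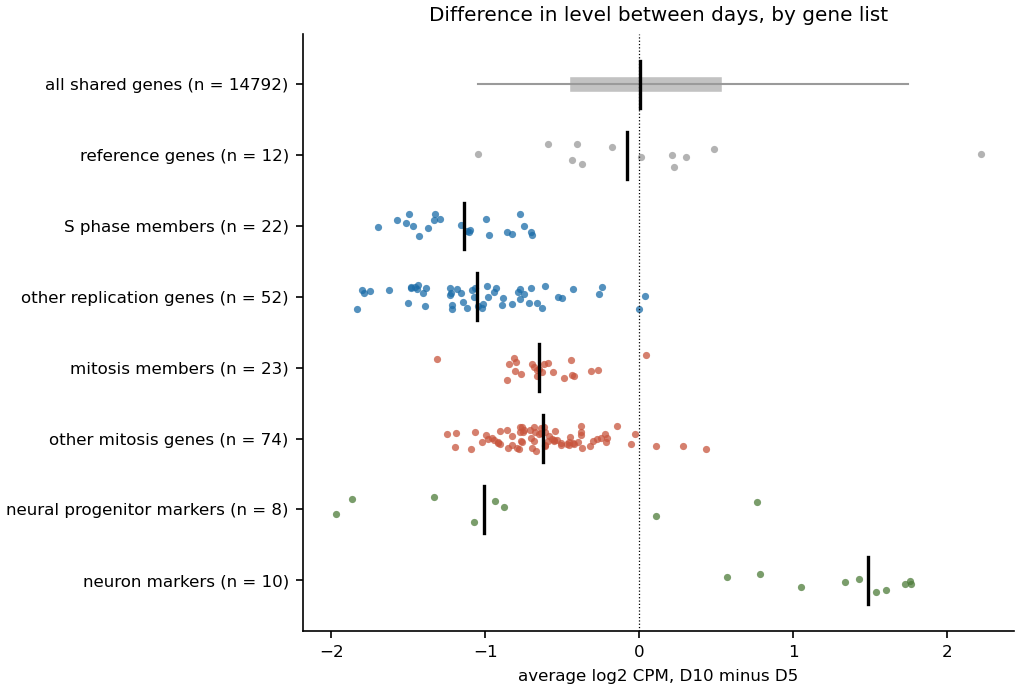
Difference in average log2 CPM, D10 minus D5, for each gene (points, spread vertically at random) of the named lists, with the median as a black bar. For all 14792 shared genes the thick line joins the quartiles and the thin line reaches into the tails. Reference genes and markers of neural progenitors and neurons are plotted the same way. The medians are -1.14 for S phase members, -1.06 for other replication genes, -0.65 for mitosis members and -0.63 for other mitosis genes.

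Markers of cell state and cell type differed between the same days. All 10 neuron markers were higher at D10, by 0.57 (Tubb3) to 1.77 (Dcx), and 6 of 8 neural progenitor markers were lower, with Pax6 at -1.97, Sox1 at -1.87 and Nes at -1.33, while Vim at 0.11 and Fabp7 at 0.76 were higher. Summed, the neuron markers took 929 CPM at D5 and 2321 at D10, and the progenitor markers 1950 and 1385. The cultures also held transcripts of another cell type: 7 of 8 endoderm-like markers were higher at D10, and their sum was 1375 CPM at D5 and 4007 at D10, with Lamb1 at 11.44 and Krt18 at 9.04 (average log2 CPM at D10 in the authors' deposited tables). Of 6 endothelial and blood markers, 3 were present on both days: Cdh5 at 0.64 and 1.71, Kdr at 0.80 and 0.51, and Tek at 2.30 and 6.16 (average log2 CPM at D5 and at D10 in the authors' deposited tables). The glial markers Gfap, S100b and Olig1 and the markers Pecam1, Tal1 and Gata1 lacked a row in at least 1 of the tables. All 5 glial markers present on both days were higher at D10, with a median difference of 0.94. Of 7 pluripotency markers present on both days, 5 were lower and 2 higher, with differences from -3.01 to 2.36. Their list was low, with a median average log2 CPM of 1.28 at D5 and 1.29 at D10. The part of these cell types in the levels of the replication and mitosis genes was not tested.

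The second comparison asks whether GLI1 alters these genes while it is expressed. None of the 45 members passed the authors' test at D5. Gli1 was induced, with a log2 fold change of 4.79 in the authors' deposited table for D5 (adjusted p = 1.12e-81), or 27.8-fold. At an adjusted p under 0.05, the authors' deposited table for D5 calls 671 of 15108 genes (4.44%) and 0 of the 45 members. The authors' test is not named in the sources used here. At an unadjusted p under 0.05 there was 1 member, Kif23, against 10.7% of all genes. Of the 6212 shared genes that reached log2 CPM 5 at D5, 90 were called higher and 101 lower. Of these 6212, 470 had an unadjusted p under 0.05.

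The members' log2 fold changes at D5 ran from -0.19 to 0.10 in the authors' deposited table. Their median was -0.015, against 0.0015 for all genes of the table, and their median size without sign was 0.036, against 0.087. Well-expressed genes have smaller values in general, with a median size of 0.053 over the 6212 shared genes whose level reached log2 CPM 5 at D5. An implied SE was derived here as the log2 fold change over the normal quantile of the p-value, and its median over the members was 0.10. From it, 95% intervals were drawn for each gene. The interval bound furthest from 0 over all 45 members was 0.39 in size, the lower bound of Kif23, so each member's interval at D5 lay within 1.31-fold of no change. These intervals inherit the assumptions of the authors' test.

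Kif23 stood lowest at D5, with a log2 fold change of -0.19 in the authors' deposited table (lower 95% bound -0.39, upper bound -4.69e-06, adjusted p = 0.469). The helicase loader Cdc6 followed at -0.15 (95% interval -0.33 to 0.02, adjusted p = 0.643) and Mcm10 at -0.11 in the authors' deposited table. At the other end were Rrm2 at 0.10 (95% interval -0.10 to 0.30), Plk1 at 0.08 and Mki67 at 0.06 in the authors' deposited table. None of these passed the authors' test. All 6 MCM subunits had small negative values, from -0.08 (Mcm7) to -0.02 (Mcm2) in the authors' deposited table, and each interval held 0. Of the 22 S phase genes, 4 had a positive value, namely Rrm1, Rrm2, Uhrf1 and Slbp, and of the 23 mitosis genes, 14 did. The medians of the groups were -0.029 and 0.0019.

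**Figure D4:**
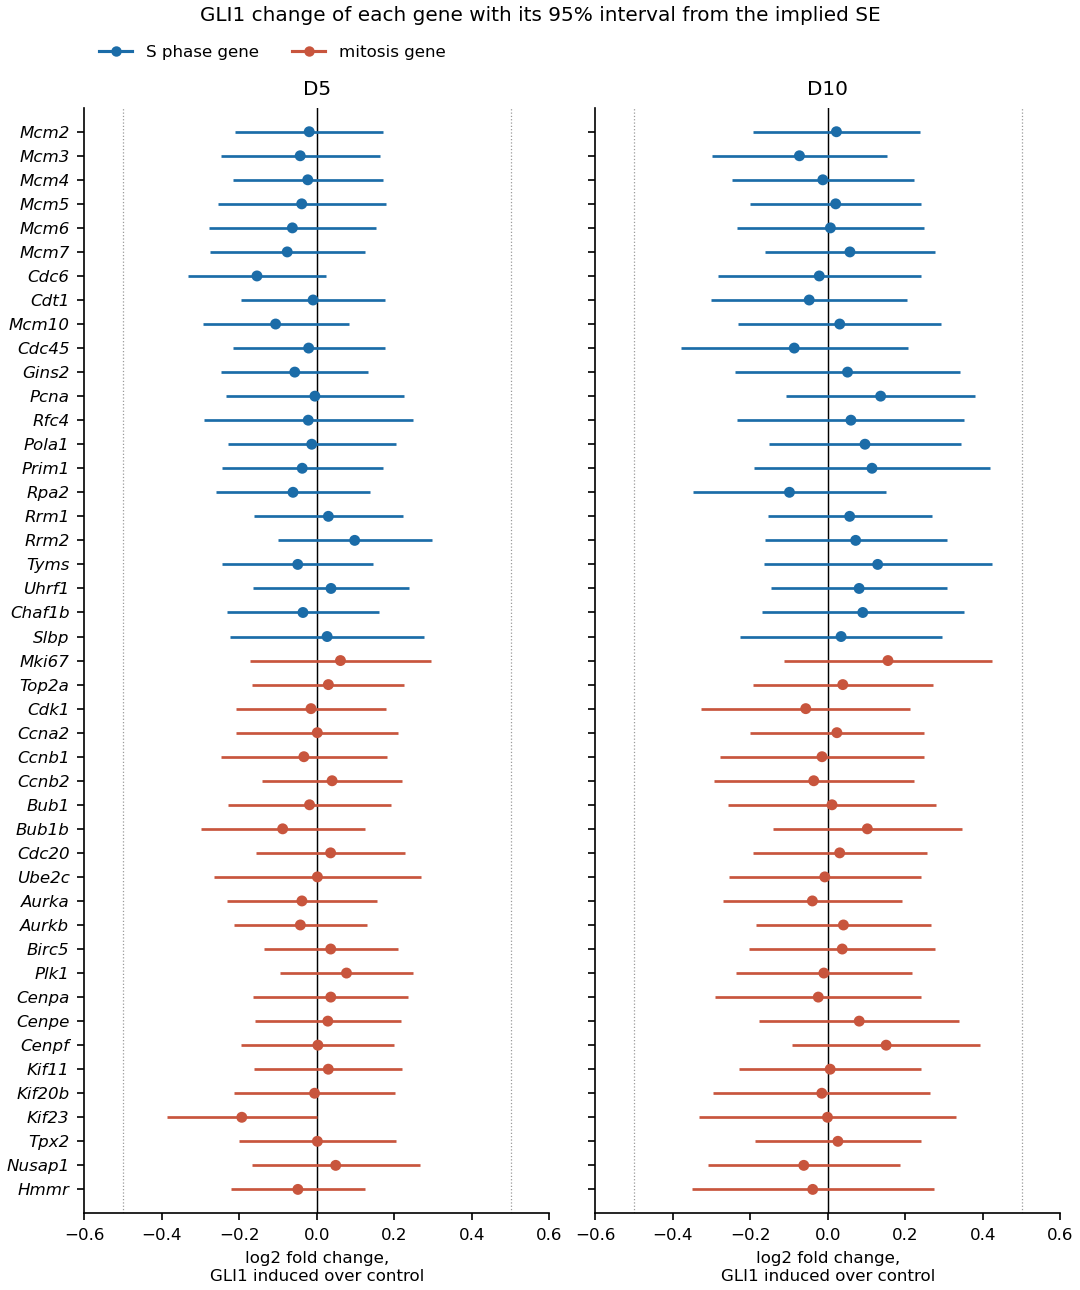
Log2 fold change of GLI1-induced over control cultures for each of the 45 genes at D5 (left) and D10 (right), as points from the authors' deposited tables with 95% intervals from the implied SE. S phase genes are blue and mitosis genes red, and the dotted lines are at 0.5 in size. No interval reaches a dotted line on either day, and the interval of Kif23 at D5 ends at 0 while all others span it.

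Further genes of the same processes gave the same counts at D5. Of the 52 other replication genes and the 74 other mitosis genes, the authors' deposited table calls 0, against 4.44% of all genes. Their medians were 0.017 and 0.032. At an unadjusted p under 0.05 there were 0 and 2, against 10.7% of all genes. Markers did differ with GLI1 in these cultures at D5: 4 of 10 neuron markers and 4 of 8 endoderm-like markers were called lower. Foxa2, also in the endoderm-like list, was called higher, at 1.37 in the authors' deposited table. The other 7 genes of that list had negative values, so no rise of that cell type is read from Foxa2. Of 8 neural progenitor markers, 0 were called. Of 5 glial markers measured, 1 was called higher and 1 lower, and of 8 pluripotency markers 1 was called lower. Nefm at -1.61 and Gata4 at -0.78 in the authors' deposited table were among the lower ones. The neuron list was mixed, as 6 of its 10 markers were not called and 3 had positive values, Rbfox3 the highest at 0.53. No general loss of neurons is read from Nefm. What part such shifts have in the members' values was not tested.

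The third comparison asks what the GLI1 pulse left behind at D10, 5 days after doxycycline was removed. Again none of the members passed the authors' test. Gli1 had a log2 fold change of 0.57 in the authors' deposited table for D10, with an adjusted p of 0.780 and a 95% interval of 0.22 to 0.92 from the implied SE. That table calls 13 of 15744 genes (0.0826%) and 0 of the 45 members. Unadjusted, 0 members had a p under 0.05, against 1.53% of all genes. Of the 6212 shared genes that reached log2 CPM 5 at D5, 5 were called higher and 0 lower. Of these 6212, 38 had an unadjusted p under 0.05. The members' values ran from -0.10 to 0.15 in the authors' deposited table. Their median was 0.023, against 0.0027 for all genes. The median implied SE was 0.13, and no interval went beyond 0.42 in size, or 1.34-fold.

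At the upper end at D10 were Mki67 at 0.15 (95% interval -0.11 to 0.42), Cenpf at 0.15 and Pcna at 0.14 in the authors' deposited table, and the lower end held Rpa2 at -0.10 (95% interval -0.35 to 0.15) and Cdc45 at -0.09. None of these passed. Of the S phase genes 16 of 22 were above 0, and of the mitosis genes 12 of 23. Their medians were 0.042 and 0.0058. Of the 52 other replication genes and 74 other mitosis genes, 0 were called and 0 had an unadjusted p under 0.05 in the authors' deposited table for D10. Over all genes of that table these shares were 0.0826% and 1.53%. A p that misses the threshold does not show that expression was equal, and the intervals above are what these data allow. Over all genes at D10 the p-values of the authors' test ran high, with a median of 0.684. The implied SEs at D10 may thus be too wide. With SEs from rescaled p-values the largest bound was 0.30 in size, against 0.42.

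**Figure D5:**
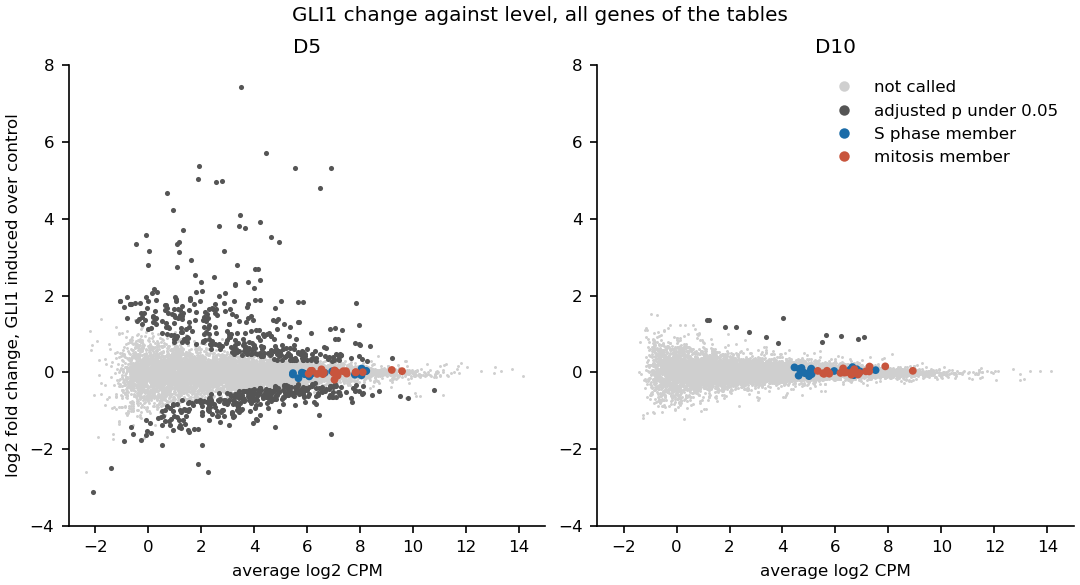
Log2 fold change of GLI1-induced over control cultures against average log2 CPM for every gene of the authors' deposited tables at D5 (left, 15108 genes) and D10 (right, 15744 genes), with called genes in dark grey and the 45 members in colour. The members sit between 4.45 and 9.59 on the level axis, between -0.19 and 0.15 on the other, and none is among the 671 and 13 called genes.

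The fourth comparison asks whether the response to GLI1 differed between the days. The difference of the log2 fold changes was tested with the implied SEs, two-sided with a normal reference and Benjamini-Hochberg adjustment over all 14792 shared genes. It called 183 genes (1.24%) and 0 of the 45 members, and 0 members had an unadjusted p under 0.05, against 4.91% of all genes. Of the 6212 genes that reached log2 CPM 5 at D5, 30 were called and 155 had an unadjusted p under 0.05. Among the members, the largest upward difference was that of Kif23, whose log2 fold changes were -0.19 and -0.00103 in the authors' deposited tables (difference 0.19, 95% interval -0.19 to 0.58). Bub1b had the smallest p among the members, with -0.09 and 0.10 in the authors' deposited tables (difference 0.19, 95% interval -0.13 to 0.51). Over the members, the log2 fold changes of the days had the same sign in 25 of 45 genes, with Pearson's r = 0.13 and Spearman's rho = 0.10. The days share no sample, and the test took them as independent. The labels do not say whether samples of the 2 days came from the same differentiations. Members of a day share all of its samples, so the sign count and the correlations are descriptions.

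For Mcm5 the difference between days was -1.70, while the difference with GLI1 was -0.04 at D5 and 0.02 at D10 in the authors' deposited tables.

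The counts rest on how reads were assigned to genes. In the GENCODE annotation 8 members have exons that overlap exons of a coding gene on the opposite strand, namely Ccna2, Cdc20, Cdc45, Gins2, Mcm7, Nusap1, Rfc4 and Ube2c, and these values are uncertain. Gins2 had by far the longest overlapping stretch, 2758 bases shared with Gse1, and its longest coding transcript has 3900 bases. The next longest was 428 bases, in Ccna2. No member shares its pair of level and fold change with another row of the tables, as near-identical copies would.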

How the data were processed

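RNA-seq of 14 cultures in 4 groups was used as the authors deposited it. Per the file headers, the table of each day lists, for every Entrez gene, the average log CPM, the log fold change, its p-value and its false discovery rate. The headers name no log base, and the deposited values were taken as log2. The labels' protocols give a poly-A TruSeq v2 library with 50-base single-end reads described as stranded. The sources used here do not name the aligner, the counting method, the test or the build. No values per culture were used, so the depth of each sample is unknown. The base of the log was checked on the averages only, as 2 raised to the average log2 CPM gives totals of 1001540 (D5) and 1001340 (D10), and the fold changes are read on the same base. The labels do not say whether replicates were separate differentiations, so the p-values measure the spread between these samples, which may be technical. Symbols came from NCBI RefSeq (GRCm38.p6), which matched 94.6% of identifiers on each day. Transcript lengths came from GENCODE M21 and promoter windows from RefSeq.

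Computed here with Python 3.11.15, pandas 2.3.3 and scipy 1.17.1 were the differences between days, implied SEs, 95% intervals, the test of the difference between days across all genes (tested on simulated data) and motif matches. The simulation drew normal values with known SEs and planted differences larger than any among the members. Error rates with SEs implied by the authors' p-values were not tested. For 227 genes (D5) and 288 (D10) the p-value gave no finite SE, and their difference was set to none. A gene is called at an adjusted p under 0.05 over all genes of a table. All 45 members are named, and of other lists the 3 lowest and 3 highest differences between days among those reaching log2 CPM 3 on a day, the 5 nearest non-members, the markers and Gli1. Any further gene was chosen with its values known. The members and lists were chosen with earlier results of these data known. Alternatives covered thresholds, adjustment, filters, centring and SEs.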

Additional observations from a re-analysis of the deposited data

How the results depend on the processing

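In 44 of 46 alternatives over 11 results, the value kept its direction where it had one and stayed within 1.5 times or within the spread set for it. The other 2 change the fold asked for between days: 37 members were at least 1.5-fold lower at D10 and 0 were at least 4-fold lower, against 15 at 2-fold. The spread was 1.5-fold for level differences, and centring shifted levels by 0.09 or less, so centring could not leave it. For the GLI1 medians and bounds it was the members' median implied SE, 0.10 at D5 and 0.13 at D10. That SE exceeds the medians, so even a changed sign counted as kept. Runs that could give no other count, named below, are among the 44. Counts of members called with GLI1 at D5, at D10 and between days were 0 under each threshold, adjustment, filter and rescaling run. A threshold of 0.01 and the Holm adjustment are stricter, so they could give no other count. A threshold of 0.1 could not either, nor could the filter on level, which keeps each p-value and only redoes the adjustment. The members' smallest adjusted p was 0.469 in the authors' test at D5, and higher at D10 and between days. Their smallest unadjusted p was 0.04999 at D5 and 0.226 at D10 in the authors' test, and 0.250 in the test between days. Over all genes, the count between days was 269 with SEs from neighbouring genes and 359 with rescaled p-values, against 183. The median at D5 turned from -0.015 to 0.018 when the reference genes were subtracted, so no direction is read from it. Subtracting the median of all genes, of reference genes or of well-expressed genes left 44 of 45 members lower at D10, with medians from -1.14 to -1.05 for S phase genes and from -0.66 to -0.56 for mitosis genes. No paired analysis was possible because the columns carry no values per culture, and for the same reason no replicate could be left out. The largest interval bounds, an alternative added after seeing the data, were 0.34 to 0.40 at D5 and 0.30 to 0.42 at D10.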

Other observations

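The listed regulators of these genes were also lower at D10 as a list, with exceptions. The list was not split into activators and repressors, so no direction of control is read from it. Of 22 cell cycle transcription factors, 18 were lower, with a median difference of -0.62 and 4 at least 2-fold lower. E2f7 at -1.24, Nfyc at -1.22 and Foxm1 at -1.10 were lowest, in that order. Among those reaching log2 CPM 3 on a day, the 3 highest were the pocket protein genes Rbl2 at 0.78 and Rb1 at 0.17, and Nfya at 0.36. Mybl2, which encodes B-Myb and was chosen after its value was seen, stood at -0.19, with 6.09 at D5 and 5.90 at D10 in the authors' deposited tables. With GLI1, 0 of the 22 were called on either day in the authors' deposited tables. Of all genes, those tables call 4.44% at D5 and 0.0826% at D10.

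Differences in level between days were also set beside the motifs. The 15 S phase genes with a CCAAT box had a median of -1.29, and the 5 without one -0.83. For mitosis genes the medians were -0.65 with a CCAAT box (17 genes) and -0.44 without (3 genes). A CHR was in 3 S phase genes, with a median of -1.10, and the 17 without one had -1.29. The 8 S phase genes with an E2F site had a median difference between days of -1.33, and the 12 without one -1.13. The 16 mitosis genes with a CHR had a median of -0.65, and the 4 without one -0.62. The ranges overlap in each of these pairs, for S phase genes with and without a CCAAT box from -1.70 to -0.70 and from -1.52 to -0.70, and no test was made.

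The 5 other genes whose 3 values (difference between days, GLI1 change at D5 and at D10) lay nearest to the members' medians were Anp32b, Sf3a3, Smarcc1, Kif4 and Cse1l, out of 5971 candidates whose level reached log2 CPM 5 at D5. Their distances ran from 0.019 to 0.022 on the log2 scale. Kif4, a chromosome-bound motor, is also in the list of other mitosis genes.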
